A study of Mus musculus with 4 samples.

Results

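The 39 genes described here serve the unfolded protein response and antibody secretion. They were taken by name in 5 subgroups: sensors, the ATF4 branch, chaperones and foldases, degradation, and secretory genes of plasma cells. All 39 were measured by at least 1 transcript cluster that the platform's gene table pairs with that gene alone, out of 19938 genes with such a cluster. Each gene is represented by its cluster with the highest mean. The arrays carried RNA of CH12.F3, a mouse B lymphoma line that switches from IgM to IgA in culture, activated for 24 hours with CD40L (25% by volume), TGFb (0.2 ng/ml) and IL4 (5 ng/ml) in medium with 6% FCS. There were 2 control arrays and 2 Mbd4 KO arrays, so the comparison is between activated cells with and without Mbd4, a DNA glycosylase that acts on thymine or uracil opposite guanine. All cells were activated, and no array of resting cells was analysed here. The series design text gives 2 independent samples per group and no pairing. The labels do not say how Mbd4 was deleted, or whether the arrays of a group are separate clones or cultures. The p-values therefore cover no more than the variation among these arrays, and how much of it is technical is not known.

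Secretory proteins fold in the endoplasmic reticulum (ER), and unfolded protein there is sensed by IRE1 (gene Ern1), PERK (Eif2ak3) and ATF6 (Atf6). IRE1 splices the Xbp1 messenger, ATF6 is cut to release a transcription factor, and PERK phosphorylates eIF2 alpha, which slows translation in general while ATF4 is made. XBP1 and ATF6 then raise chaperone, foldase and degradation genes, and ATF4 raises genes of amino acid supply, redox balance and, through CHOP (Ddit3), cell death. In B cells this machinery expands as they become plasma cells, which secrete antibody in bulk. Splicing, cleavage and phosphorylation are not read by a transcript cluster, so the values below concern messenger levels only. In bulk RNA, fewer cells that express a gene and less RNA per cell cannot be told apart.

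Of all 19938 genes, limma called 274 at an adjusted p under 0.05, which is 1.37% (0.451% higher and 0.923% lower in Mbd4 KO cells). Mbd4 itself read 8.74 and 8.77 (log2 signal) on the control arrays and 6.47 and 6.49 on the Mbd4 KO arrays (limma adjusted p = 0.0002), so the arrays followed their labels. The B cell markers, 9 measured, had means per array of 11.10 to 11.14 (log2) without the deletion and 11.13 to 11.17 with it. The means over 8 T cell, 10 macrophage or monocyte and 10 fibroblast markers lay between 6.36 and 7.27 on every array. Thy1 is in both the T cell and the fibroblast list. Limma called 0 markers of any list, with 3, 3, 3 and 2 of the B cell, T cell, macrophage and fibroblast markers at an unadjusted p under 0.05. Of those macrophage markers, Mpeg1 (means of 11.25 without the deletion and 11.06 with it) and Cd68 (10.30 and 10.05) read far above the list mean and were lower in Mbd4 KO cells. Lyz2 (5.02 and 5.26) was higher. The part of these differences in the results below was not tested.

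No gene of the unfolded protein response and secretion set was called. Limma passed 0 of the 39 at an adjusted p under 0.05, against 1.37% of all genes, while 8 of the 39 (20.5%) had an unadjusted p under 0.05, against 14.0% of all genes. Of the 8, Trib3, Ddit3, Chac1 and Ero1a had higher values in Mbd4 KO cells (7.59% of all genes) and Dnajb11, Ero1b, Ell2 and Pdia3 lower ones (6.38% of all genes). The 39 differences, Mbd4 KO minus control, ran from -0.43 to 0.44 (log2) with a median of -0.0074 (0.019 without control array 2), beside a median of 0.023 over all genes. The control and Mbd4 KO arrays did not overlap in 22 of the 39 (56.4%), against 45.1% of all genes. With 2 arrays a group an exact two-sided permutation test of 1 gene can give no p below 0.333, so such separation alone cannot pass a test.

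**Figure D1:**
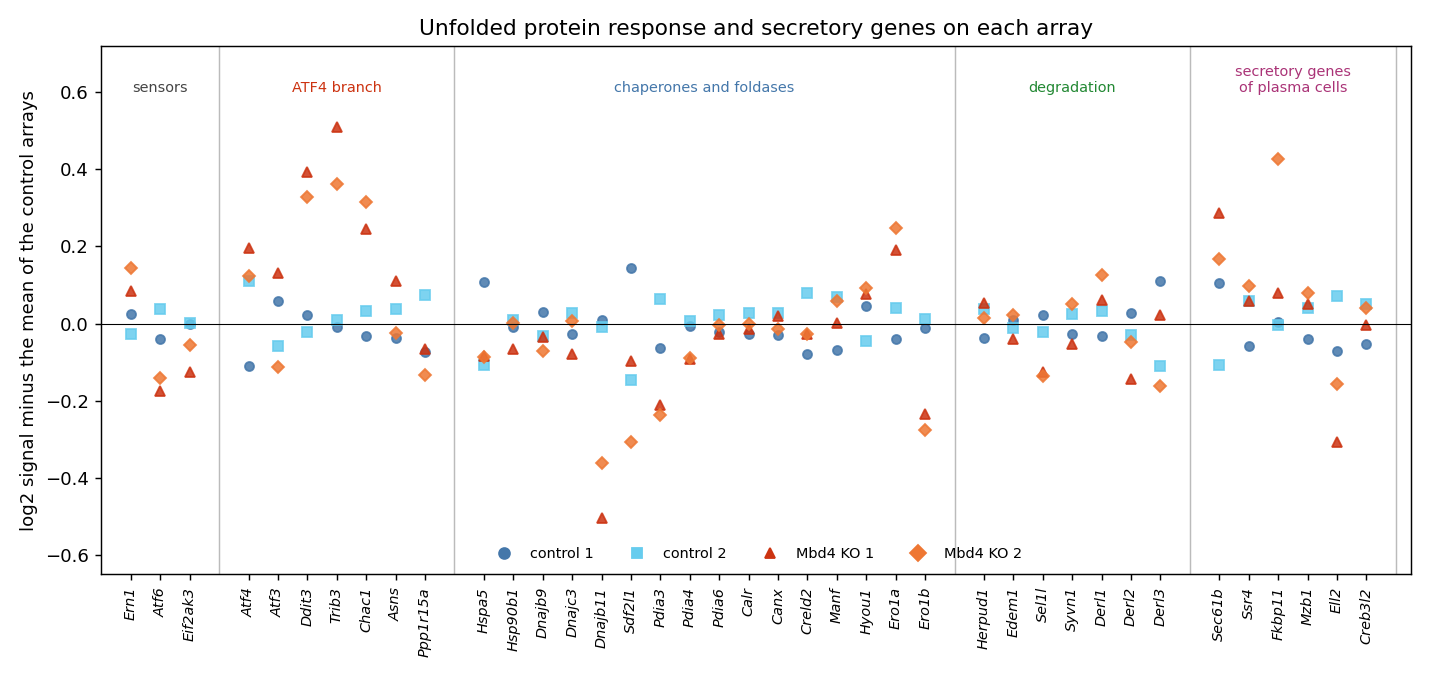
Log2 signal of the 39 genes on each of the 4 arrays, relative to the mean of the 2 control arrays of the same gene (vertical axis), with genes grouped by role along the horizontal axis. By the mean of the 2 Mbd4 KO arrays, Trib3, Ddit3 and Chac1 stand highest above the controls and Dnajb11 farthest below them. Fkbp11 stands high on Mbd4 KO array 2 alone. Most chaperone and degradation genes lie close to zero on all arrays.

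The number of members called depended on the variance model and on the filter for dim clusters. With an intensity trend in limma's variance prior, which called 5.13% of all genes, 6 of the 39 passed: Trib3, Ddit3, Chac1 and Ero1a as higher, and Dnajb11 and Pdia3 as lower. Without the dimmest 30% of clusters, where 4.18% of the remaining genes were called, Trib3, Ddit3 and Dnajb11 passed out of 38. That filter took out 1 of the 39, Asns. No other setting tried called any of the 39.

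The 3 sensor genes had small differences in both directions, and none passed. Ern1, which encodes the IRE1 kinase and endonuclease, read 9.14 and 9.09 (log2 signal) on the control arrays and 9.20 and 9.26 on the Mbd4 KO arrays. Both Mbd4 KO values lay above both controls, and the difference was 0.11 ± 0.069 (log2, SE; limma adjusted p = 0.531). Atf6, which encodes the membrane-bound transcription factor, read 10.72 and 10.80 on the control arrays and 10.59 and 10.62 on the Mbd4 KO arrays. Its Mbd4 KO values were both the lower ones, by -0.16 ± 0.069 (log2, SE; limma adjusted p = 0.396). For Eif2ak3, the PERK kinase gene, the values were 9.05 and 9.06 on the control arrays and 8.93 and 9.00 on the Mbd4 KO arrays. That is a difference of -0.090 ± 0.068 (log2, SE; limma adjusted p = 0.626), again without overlap of the groups. For all 3 the difference was larger than that between the arrays of either group, which held for 16 of the 39 (41.0%) and for 33.2% of all genes. The 95% intervals of limma, each for 1 gene alone, reached from 1.04-fold lower to 1.22-fold higher for Ern1, from 1.25-fold lower to 1.01-fold higher for Atf6 and from 1.19-fold lower to 1.05-fold higher for Eif2ak3.

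In the ATF4 branch, 6 of the 7 genes had values above zero in Mbd4 KO cells, with a median difference of 0.16 (log2; 0.066 without control array 1 and 0.27 without control array 2). Of all genes, 57.9% were above zero. Limma called 0 of the 7, and 3 had an unadjusted p under 0.05, all higher (7.59% of all genes). Trib3, a pseudokinase gene induced by ATF4 and CHOP, read 7.56 and 7.58 (log2 signal) on the control arrays and 8.08 and 7.94 on the Mbd4 KO arrays. Its Mbd4 KO arrays were both above the controls, with a difference of 0.44 ± 0.078 (log2, SE), 1.35-fold (limma adjusted p = 0.0744). The adjusted p was 0.0138 with the intensity trend and 0.0292 without the dimmest clusters, within a range of 0.0138 to 0.286 over 13 alternatives. Ddit3, the CHOP gene, read 8.64 and 8.59 on the control arrays and 9.01 and 8.94 on the Mbd4 KO arrays. These groups were also apart, by 0.36 ± 0.069 (log2, SE), 1.28-fold (limma adjusted p = 0.0869). Here the adjusted p was 0.0117 with the trend and 0.0338 without the dimmest clusters, within a range of 0.0117 to 0.332.

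Chac1, which encodes a glutathione-degrading enzyme induced by ATF4, read 9.72 and 9.79 (log2 signal) on the control arrays and 10.00 and 10.07 on the Mbd4 KO arrays. The groups did not overlap, and the difference was 0.28 ± 0.071 (log2, SE), 1.21-fold (limma adjusted p = 0.164; 0.0184 with the trend, within a range of 0.0184 to 0.446). For Trib3, Ddit3 and Chac1 the difference between groups was larger than that between the arrays of either group. It stayed above zero in all 13 alternatives, which adds little. Where groups do not overlap, leaving 1 array out cannot change the sign, and the block and the intensity trend leave the difference itself unchanged. Atf4 itself read 9.20 and 9.42 on the control arrays and 9.51 and 9.43 on the Mbd4 KO arrays. The 2 control arrays differed by 0.22, more than the group difference of 0.16 (log2; limma adjusted p = 0.519), which was 0.050 without control array 1 and 0.27 without control array 2. Atf3, a stress-induced transcription factor gene (0.0086), and Asns, asparagine synthetase (0.043), had overlapping groups. Ppp1r15a, which encodes the GADD34 subunit that directs dephosphorylation of eIF2 alpha, was the gene below zero (-0.099; limma adjusted p = 0.654), also with overlap.

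ATF4 binds composite C/EBP-ATF elements (CARE), and the search for TGATGNAA on both strands in the 250 bases before each start, from RefSeq promoter windows of assembly GRCm38.p6, found it in 4 of the 34 members with a window. It occurs in 3.45% of all 32851 windows. The 4 sites are shown because 3 of them belong to the ATF4 branch and the other to Herpud1; the element is in capitals with 6 bases on each side, on the strand that holds it. They lie 193, 110, 23 and 112 bases before the start in Chac1, Atf3, Asns and Herpud1.
Chac1, chr2:119351043-119351062, minus strand: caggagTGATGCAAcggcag
Atf3, chr1:191183430-191183449, plus strand: acttggTGATGCAAgtgcga
Asns, chr6:7693219-7693238, minus strand: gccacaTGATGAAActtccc
Herpud1, chr8:94386311-94386330, minus strand: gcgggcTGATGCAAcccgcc
The genes with the site had differences of 0.28, 0.0086, 0.043 and 0.033 in the same order, so 3 of the 4 were within 0.1 of zero. The windows of Trib3 and Ddit3 did not hold these letters. The upstream window of Chac1, chr2:119350992-119351241 on the plus strand, is given as the 1 of the 4 with an unadjusted p under 0.05, with the site in capitals as read on that strand.
Chac1 upstream: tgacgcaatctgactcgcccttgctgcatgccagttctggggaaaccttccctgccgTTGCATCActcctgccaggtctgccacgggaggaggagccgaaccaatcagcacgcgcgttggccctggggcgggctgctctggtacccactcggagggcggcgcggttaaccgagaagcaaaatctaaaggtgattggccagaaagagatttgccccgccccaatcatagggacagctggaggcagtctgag

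Most of the 16 chaperone and foldase genes lay near zero: 11 were within 0.1 (log2), 68.8%, as were 58.3% of all genes. The median difference was -0.034 (-0.016 without control array 2 and -0.020 without Mbd4 KO array 1), with 4 above and 12 below zero. Thus 25.0% were above zero, against 57.9% of all genes. Limma called 0, and 4 had an unadjusted p under 0.05 (25.0%, against 14.0% of all genes): Dnajb11, Ero1b and Pdia3 as lower and Ero1a as higher. Hspa5, the BiP chaperone that also holds the sensors inactive, read 12.22 and 12.01 (log2 signal) on the control arrays and 12.03 and 12.03 on the Mbd4 KO arrays. Only control array 1 stood apart, and the groups overlapped (-0.086 ± 0.090, log2, SE; limma adjusted p = 0.734). Without control array 1 the difference was 0.021. Hsp90b1, the GRP94 chaperone, differed by -0.032, and the lectin chaperones Calr and Canx by -0.0074 and 0.0036. The interval for Canx allowed at most a 1.12-fold change in either direction, and that for Hspa5 at most 1.24-fold lower or 1.10-fold higher.

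Dnajb11, a BiP co-chaperone gene, had the lowest difference of the 39. It read 9.90 and 9.88 (log2 signal) on the control arrays and 9.38 and 9.52 on the Mbd4 KO arrays. The groups did not overlap, and the difference was -0.43 ± 0.077 (log2, SE), 1.35-fold lower, but limma's adjusted p was 0.0734 (0.00251 with the intensity trend and 0.0282 without the dimmest clusters, within a range of 0.00251 to 0.286 over 12 alternatives). Dnajb11 and Sdf2l1, another BiP cofactor gene, lie on chromosome 16, where the 435 genes above the dim limit (a mean of 6.058, log2) had a median difference of -0.22 and 355 of them were below zero. Only 18.4% of these genes were above zero, against 57.4% of all genes above the dim limit. The part of that shift in both values was not tested. Sdf2l1 read 11.13 and 10.84 on the control arrays and 10.89 and 10.68 on the Mbd4 KO arrays. Its arrays overlapped between groups, and within the control group they differed by 0.29, more than the group difference of -0.20 (limma adjusted p = 0.535), which ran from -0.35 to -0.056 with 1 array left out. The 14 chaperone and foldase genes on other chromosomes had a median of -0.029.

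Pdia3, the disulfide isomerase that works with calreticulin and calnexin, read 11.57 and 11.70 (log2 signal) on the control arrays and 11.43 and 11.40 on the Mbd4 KO arrays. Both Mbd4 KO arrays were the lower ones, by -0.22 ± 0.075 (log2, SE; limma adjusted p = 0.275; 0.0236 with the trend, within a range of 0.0236 to 0.62). Like Pdia3 in the main fit, the other isomerase genes, Pdia4 (-0.090) and Pdia6 (-0.015), did not pass. The groups did not overlap for Pdia4, whose second cluster gave -0.12, and overlapped for Pdia6.

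The paired genes for oxidases that recharge protein disulfide isomerase had differences of opposite sign. Ero1a (listed under its older symbol Ero1l), which is also known as a hypoxia-induced gene, read 11.08 and 11.16 (log2 signal) on the control arrays and 11.31 and 11.37 on the Mbd4 KO arrays. It was thus higher on both Mbd4 KO arrays, by 0.22 ± 0.071 (log2, SE; limma adjusted p = 0.259; 0.0233 with the trend, within a range of 0.0233 to 0.568). Ero1b (older symbol Ero1lb), the form enriched in secretory cells such as pancreatic beta cells, read 9.00 and 9.03 on the control arrays and 8.78 and 8.74 on the Mbd4 KO arrays. It was lower on both Mbd4 KO arrays, by -0.25 ± 0.066 (log2, SE; limma adjusted p = 0.177), and no alternative called it (0.0588 to 0.461). The remaining co-chaperone and ER stress genes, Dnajb9 (-0.052), Dnajc3 (-0.037), Creld2 (-0.026), Manf (0.031) and Hyou1 (0.085), had limma adjusted p from 0.66 to 0.927. Dnajc3 had a second cluster with identical values on all 4 arrays.

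**Figure D2:**
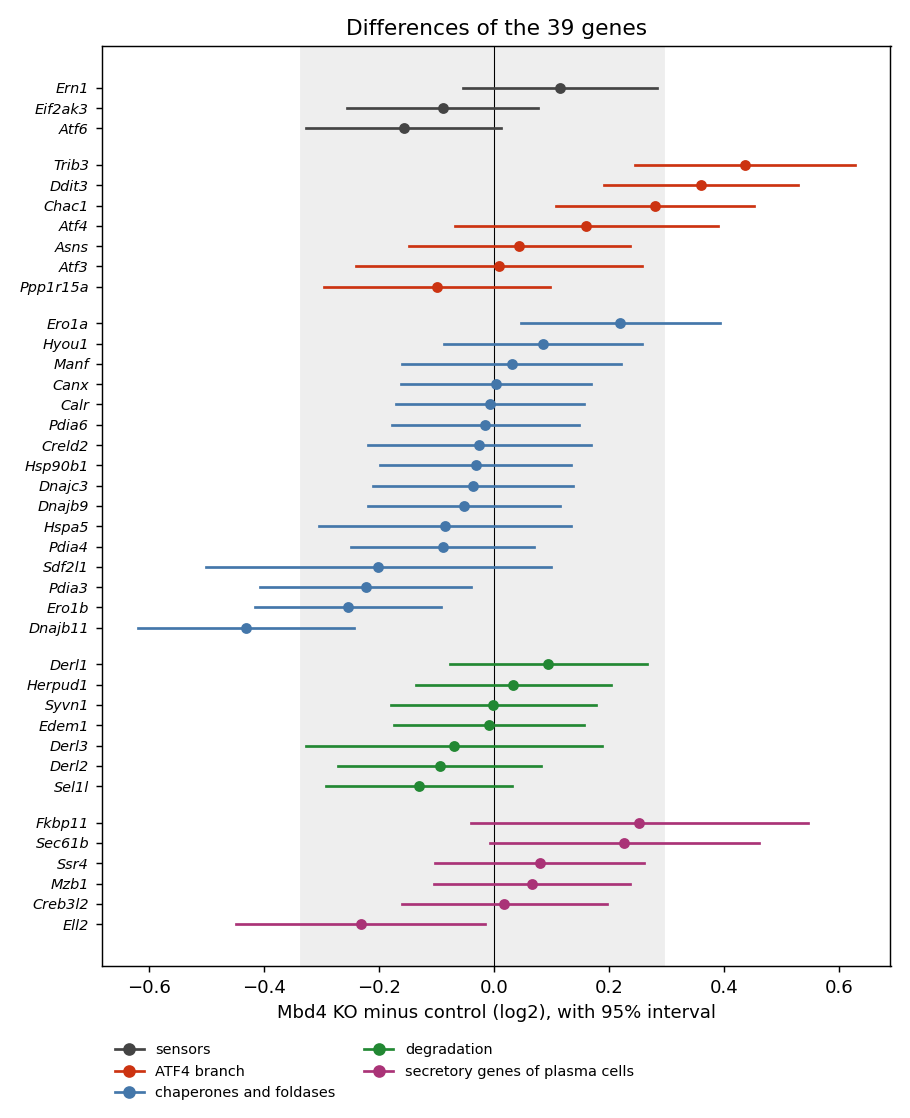
Difference between the mean of 2 Mbd4 KO and the mean of 2 control arrays (log2, horizontal axis) for each gene, as points with limma's 95% intervals (lines, each for 1 gene alone). The grey band from -0.34 to 0.30 holds the central 95% of differences over all clusters tested; Trib3, Ddit3 and Dnajb11 lie outside it.

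ATF6 and XBP1 act on chaperone promoters through the ER stress response element (ERSE), in which a CCAAT part, bound by NF-Y, and a CCACG part are 9 bases apart. An exact match to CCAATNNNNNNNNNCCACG on either strand was found in the upstream 250 bases of 10 of the 34 members with a window (29.4%), against 37 of 32851 windows in the table (0.113%). Of the 10, 8 are chaperone or foldase genes and Syvn1 and Derl3 are degradation genes; Hsp90b1 held 2 sites. The 11 sites lay between 26 and 212 bases before the start. They are shown because the element is the best known link between ER stress and these genes. For that reason its share among the members was foreseeable and is no test, and the 37 windows include those of the members. Both parts are in capitals, on the strand on which CCAAT comes first.
Hspa5, chr2:34772025-34772043, plus strand: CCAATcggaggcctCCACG
Hsp90b1, chr10:86705533-86705551, plus strand: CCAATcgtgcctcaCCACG
Hsp90b1, chr10:86705638-86705656, minus strand: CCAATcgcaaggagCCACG
Dnajc3, chr14:118937827-118937845, plus strand: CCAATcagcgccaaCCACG
Pdia6, chr12:17266491-17266509, plus strand: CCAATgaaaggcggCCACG
Calr, chr8:84847075-84847093, plus strand: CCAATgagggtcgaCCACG
Canx, chr11:50325800-50325818, minus strand: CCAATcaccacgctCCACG
Creld2, chr15:88819520-88819538, minus strand: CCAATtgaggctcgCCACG
Ero1b, chr13:12565682-12565700, minus strand: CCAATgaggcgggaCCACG
Syvn1, chr19:6046532-6046550, plus strand: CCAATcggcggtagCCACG
Derl3, chr10:75893242-75893260, minus strand: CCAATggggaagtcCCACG

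The 10 genes with these sites had a median difference of -0.029 (log2), and 9 of the 10 were within 0.1 of zero, from -0.086 for Hspa5 to 0.0036 for Canx. Ero1b was the exception. Of the 10 chaperone, foldase and degradation genes whose windows did not hold the exact letters, 5 were within 0.1 of zero. The share over all genes was 58.3%. These 10 had a median of -0.092 and a range from -0.43 (Dnajb11) to 0.22 (Ero1a). They include Dnajb11 and Sdf2l1 of chromosome 16, whose 435 genes above the dim limit had a median of -0.22. No gene of the set with ERSE lies on chromosome 16. The difference between these sets was not tested. Beyond the members, 10 other measured genes had an ERSE in their window, with a median difference of 0.097 and 5 of the 10 within 0.1 of zero. Windows of a pair of genes that start close together on opposite strands can share a site.

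The upstream windows of Hspa5 and Dnajb11 are set side by side as the best known target of the element and the member with the lowest difference. Capitals mark each CCAAT on either strand and, in Hspa5, the CCACG part of its exact ERSE. Both windows hold 4 CCAAT boxes, a motif found in 33.8% of all windows and in 26 of the 34 members, but CCACG (28.3% of all windows, 22 of the 34 members) occurs only in that of Hspa5. The windows are chr2:34771840-34772089 and chr16:22857595-22857844, both on the plus strand.
Hspa5 upstream: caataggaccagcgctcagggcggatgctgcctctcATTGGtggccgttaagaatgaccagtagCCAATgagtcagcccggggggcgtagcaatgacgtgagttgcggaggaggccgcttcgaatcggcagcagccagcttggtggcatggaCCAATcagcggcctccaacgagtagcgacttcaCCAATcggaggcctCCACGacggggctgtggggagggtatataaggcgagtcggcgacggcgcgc
Dnajb11 upstream: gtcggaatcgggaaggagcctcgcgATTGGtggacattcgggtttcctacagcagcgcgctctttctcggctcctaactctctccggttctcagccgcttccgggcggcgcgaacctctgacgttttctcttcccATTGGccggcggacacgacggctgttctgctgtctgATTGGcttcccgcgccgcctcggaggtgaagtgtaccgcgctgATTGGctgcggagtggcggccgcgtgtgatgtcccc

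**Figure D3:**
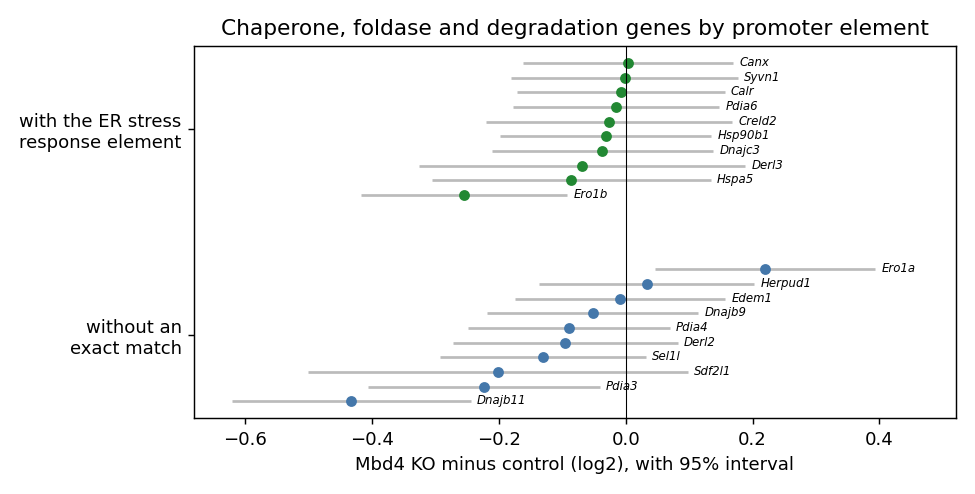
Difference between Mbd4 KO and control cells (log2, horizontal axis) with limma's 95% intervals (lines, each for 1 gene alone) for the 20 chaperone, foldase and degradation genes with a promoter window, split by an exact ERSE match in the 250 bases before the start. Among the 10 with a match, all but Ero1b lie within 0.1 of zero. Dnajb11 and Sdf2l1 of chromosome 16 are both among those without a match.

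The 7 genes of ER-associated degradation, which returns misfolded proteins to the cytosol, differed by -0.13 to 0.094 (log2), and 0 had an adjusted or unadjusted limma p under 0.05. Sel1l, the scaffold of the HRD1 ubiquitin ligase, read 11.03 and 10.98 (log2 signal) on the control arrays and 10.88 and 10.87 on the Mbd4 KO arrays. Its groups did not overlap, with a difference of -0.13 ± 0.066 (log2, SE; limma adjusted p = 0.461). Syvn1, which encodes HRD1 itself, differed by -0.0016. Of the derlin genes, whose products form the exit channel, Derl1 read 11.42 and 11.48 on the control arrays and 11.51 and 11.57 on the Mbd4 KO arrays. Derl2 read 9.06 and 9.00 on the control arrays and 8.89 and 8.99 on the Mbd4 KO arrays. Thus Derl1 was the higher and Derl2 the lower on both Mbd4 KO arrays, by 0.094 and -0.095 (limma adjusted p = 0.62 and 0.628). Derl3, the derlin most tied to secretory cells, overlapped between groups (-0.069), as did Edem1, a mannosidase-like lectin gene (-0.0085).

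Herpud1, an ER stress-induced adaptor of this ligase, differed by 0.033 (log2; limma adjusted p = 0.884), with overlapping groups. Its window was the only one among the members that held the second form of the element (ERSE-II, searched as ATTGG and CCACG with 1 base between them, on either strand), which occurs in 0.0304% of all windows. It also held the CARE site given above, so that sites for both branches stand in the window chr8:94386179-94386428 on the plus strand, with the CARE first and the ERSE-II second in capitals. The XBP1 element searched (UPRE, TGACGTGG on either strand, 0.563% of all windows) was in 0 of the 34 windows.
Herpud1 upstream: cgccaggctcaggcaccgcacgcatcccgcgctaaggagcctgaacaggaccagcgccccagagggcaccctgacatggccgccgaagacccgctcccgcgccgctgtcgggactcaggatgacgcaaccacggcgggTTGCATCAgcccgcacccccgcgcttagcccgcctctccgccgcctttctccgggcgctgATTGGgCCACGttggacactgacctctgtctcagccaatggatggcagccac

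The 6 secretory genes of plasma cells had a median difference of 0.072 (log2; 0.022 without control array 1 and 0.11 without control array 2). Above zero were 5 of them (83.3%, against 57.9% of all genes), and limma called 0. Ell2, an elongation factor gene that in plasma cells promotes the secreted form of the immunoglobulin heavy chain, was the 1 with an unadjusted p under 0.05. It read 10.78 and 10.92 (log2 signal) on the control arrays and 10.54 and 10.69 on the Mbd4 KO arrays. Both Mbd4 KO arrays lay below both controls, by -0.23 ± 0.088 (log2, SE; limma adjusted p = 0.33). Fkbp11, an ER prolyl isomerase gene, read 6.75 and 6.74 on the control arrays and 6.82 and 7.17 on the Mbd4 KO arrays. The difference of 0.25 ± 0.12 (log2, SE; limma adjusted p = 0.432) came mostly from Mbd4 KO array 2 and was 0.078 without it and 0.43 without Mbd4 KO array 1. Sec61b, a subunit of the translocation channel, read 9.80 and 9.59 on the control arrays and 9.98 and 9.86 on the Mbd4 KO arrays. Its groups did not overlap (0.23 ± 0.096, log2, SE; limma adjusted p = 0.377; 0.12 without control array 2), while its other clusters gave 0.18 and -0.069, so the clusters disagreed in sign. Ssr4, a translocon-associated protein gene (0.079), Mzb1, a chaperone for IgM and IgA assembly (0.065), and Creb3l2, a membrane-bound transcription factor gene of the secretory pathway (0.018), had limma adjusted p from 0.7 to 0.947.

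The rest of the pathway was read from 7 further lists, of which 133 of 141 genes were measured. Limma called 1 of the 133 as higher and 0 as lower, against 1.37% of all genes called. An unadjusted p under 0.05 was found for 14 (10.5%, against 14.0% of all genes), 7 in each direction. The call was that of Jchain, the chain that links IgM and IgA into polymers, which read 12.33 and 12.33 (log2 signal) on the control arrays and 12.77 and 12.76 on the Mbd4 KO arrays. Jchain rose by 0.43 ± 0.065 (log2, SE), with a limma adjusted p of 0.045. The call was lost with any 1 array left out, where the difference was 0.43 to 0.44. It was also lost with the replicate number as a block (0.0891), over all clusters of the table (0.189) and without the genes of chromosome 16 (0.0507). It held with the intensity trend (limma adjusted p = 2.28e-05). The count of calls among the 133 also stayed at 1 with the robust prior and with quantile or cyclic loess normalization. Xbp1, the transcription factor gene on which plasma cell secretion depends, read 11.20 and 11.14 on the control arrays and 11.26 and 11.18 on the Mbd4 KO arrays. These groups overlapped, with a difference of 0.050 (limma adjusted p = 0.812) and an interval from 1.09-fold lower to 1.17-fold higher. Of the 17 plasma cell regulators and markers measured, 8 were above zero (47.1%, against 57.9% of all genes) and 9 below, with a median of -0.038 (log2). The next largest difference after Jchain was that of Bhlha15, the MIST1 transcription factor gene (0.26; limma adjusted p = 0.422), which was 0.44 without control array 1 and 0.085 without control array 2. Prdm1, the BLIMP1 gene that drives plasma cell differentiation, differed by -0.22 ± 0.071 (log2, SE; limma adjusted p = 0.258), with both Mbd4 KO arrays below both controls. It was the 1 gene of this list besides Jchain with an unadjusted p under 0.05, and is named here after its value was seen.

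Among 23 other ATF4 targets, 17 had values above zero (73.9%, against 57.9% of all genes), with a median of 0.056 (log2). Limma called 0 of them, and 2 had an unadjusted p under 0.05, Ddit4 and Slc7a1, both higher. Ddit4, an inhibitor of mTORC1 that hypoxia and stress also induce, read 9.47 and 9.22 (log2 signal) on the control arrays and 10.00 and 9.75 on the Mbd4 KO arrays. The groups were apart by 0.54 ± 0.12 (log2, SE; limma adjusted p = 0.128), and it passed with the intensity trend (0.00655). Slc7a1, a cationic amino acid transporter gene named after its value was seen, read 11.11 and 11.04 on the control arrays and 11.32 and 11.31 on the Mbd4 KO arrays. Its groups were apart by 0.24 ± 0.068 (log2, SE; limma adjusted p = 0.21). Sesn2, another stress-induced inhibitor of mTORC1, differed by 0.27 (limma adjusted p = 0.428), which was 0.11 without Mbd4 KO array 1 and 0.43 without Mbd4 KO array 2.

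The other lists had 0 calls by limma. Of 14 signalling genes, Nfe2l2, the NRF2 gene, differed by 0.30 and Traf2, an adaptor of IRE1, by 0.13 (log2; 0.18 and 0.072 without Mbd4 KO array 2). Of 18 other foldase and glycoprotein genes, the cargo-receptor cofactor gene Mcfd2 differed by 0.26 and Txndc11 by -0.25. Of 15 other degradation genes, Ufd1, a cofactor of the VCP segregase, differed by -0.37 (limma adjusted p = 0.0809) and the mannosidase gene Man1b1 by -0.25. Txndc11 and Ufd1 lie on chromosome 16, as Dnajb11 and Sdf2l1 do. Pdia5 and Tnfrsf17 of the further lists also lie there and differed by 0.22 and -0.054 (limma adjusted p = 0.301 and 0.842). The groups did not overlap for Pdia5. Its mean over the 4 arrays lay below the dim limit of 6.058 (log2), so it is not among the 435 chromosome 16 genes counted above. The part of the chromosome 16 shift in these values was not tested. Pdia5 and Tnfrsf17 are named here after their values were seen. Of 26 translocation, signal peptidase and oligosaccharyl transferase genes, Srp19 differed by 0.31 (0.11 without control array 1 and 0.51 without control array 2) and Rpn2 by -0.23. Of 20 genes of transport from ER to Golgi, 13 were below zero (median -0.047), with the lowest values in the coat gene Sec23a (-0.20) and the cargo receptor gene Tmed10 (-0.19). The second, dimmer cluster of Tmed10 gave -0.43 (log2; limma adjusted p = 0.235).

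**Figure D4:**
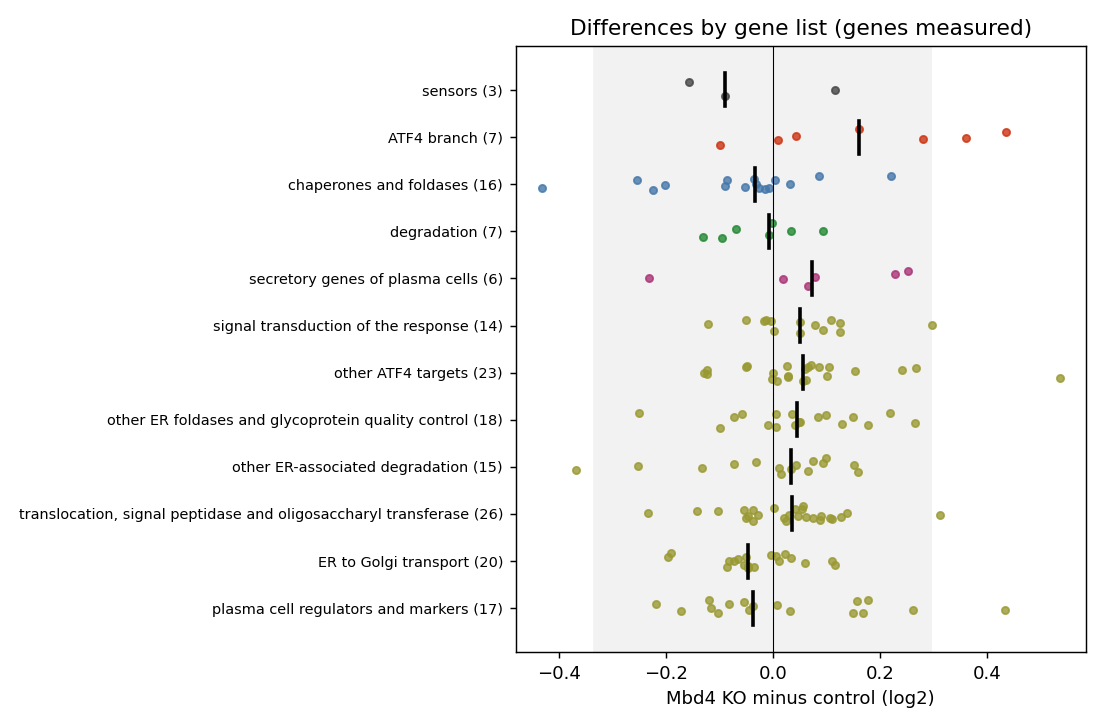
Difference between Mbd4 KO and control cells (log2, horizontal axis) for each measured gene of the 5 subgroups and of the 7 further lists (rows, with the number of genes measured). Points are genes, black bars are medians, and the grey band holds the central 95% of differences over all clusters tested; the ATF4 branch has the highest median, 0.16, and Ddit4 the highest single value, 0.54.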

How the data were processed

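Log2 signals, 1 per transcript cluster and array, were deposited by the authors and made with RMA, per the submitters' processing notes. The sources used here give neither its version and settings nor the array's build. The labels' protocols name both total RNA and polyA RNA. The 21789 of 35556 clusters with 1 gene symbol were fitted in R 4.3.3 by limma 3.58.1 (lmFit and eBayes, two-sided; Benjamini-Hochberg over all 21789; threshold 0.05), with no filter. The number of arrays limits the precision (median SE 0.0777, log2). The procedure was tested on simulated data with changes larger than any difference among the members, so that test does not cover differences of their size. Members and lists were chosen with earlier results of these data known. By rule, values on all arrays are given for the sensors and the 3 largest differences per subgroup, and further lists are named by calls, the 2 largest differences, Xbp1 and Jchain. The array values of Atf4, Hspa5, Sdf2l1, Ero1a and Ddit4 were added after their values were seen. So were the genes Prdm1, Slc7a1, Pdia5 and Tnfrsf17. Promoter windows came from RefSeq. Alternatives were a block for the replicate number, leaving out each array, an intensity trend or robust prior, removal of the dimmest 30%, quantile or cyclic loess normalization, all clusters, the mean of a gene's clusters, and no chromosome 16 genes. Figures were drawn with matplotlib 3.10.9.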

Additional observations from a re-analysis of the deposited data

How the results depend on the processing

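Counts of calls moved most. The 302 clusters called became 159 with the replicate number as a block, 65 to 75 with 1 array left out, 1121 with the intensity trend, 640 without the dimmest 30% of clusters and 22 over all clusters of the table. Of the 39 genes, 0 were called, against 6 with the trend and 3 without the dimmest 30%, and 0 in every other setting, the block included. Of the 133 further genes, 1 was called, against 0 with the block, with any array left out and over all clusters, 8 with the trend and 2 without the dimmest 30%. Same-numbered arrays deviated together only weakly (r = 0.0831 across clusters, which are not independent), so the numbers were not taken to pair the arrays. Leaving out each array gave medians (log2) of -0.025 to 0.019 for the 39 genes, 0.066 to 0.27 for the ATF4 branch, -0.049 to -0.016 for chaperones and foldases, -0.040 to 0.014 for degradation genes and 0.022 to 0.11 for secretory genes. Of these, the medians of the 39 genes and of the degradation genes changed sign with the array left out. The cause of these shifts was not tested. With 2 arrays a group, differences of the size seen here can go uncalled.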
